A study of Mus musculus with 6 samples.

Results

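The genes described here act in mitosis, the stage in which a cell separates its copied chromosomes and divides. They are a set of 38 symbols, and all 38 were found among the 34590 gene rows of the deposited count tables. The genes are listed by symbol for their known function, and the list was drawn up with earlier results of these data known. The counts come from skin biopsies of C57BL/6 mice treated with imiquimod on the skin surface for 2 days. Imiquimod is a Toll-like receptor 7 agonist that causes a psoriasis-like inflammation in mouse skin. Of the 6 animals, 3 were Tnip1+/+ (wild type) and 3 were Tnip1-/- (knockout), and the labels give imiquimod as the treatment of all 6. The library codes hold the letters IMQ in all wild type and NORM in all knockout libraries, with no meaning given, so a difference behind these codes cannot be told apart from genotype. Tnip1 encodes a ubiquitin-binding protein that restrains NF-kB signalling. The labels give neither the age nor the sex of the animals, nor the deleted part of Tnip1, and untreated skin was not analysed here.

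A dividing cell copies its DNA in S phase, prepares in G2 and then enters mitosis, when cyclin B and its kinase drive chromosome condensation and spindle assembly. Kinetochores tie each chromosome to the spindle, a checkpoint holds the cell until all are attached, and the anaphase-promoting complex then destroys cyclins and securin so that sister chromatids part. Most of these genes are transcribed in G2 and M phase, and their RNA is widely used as a sign of cycling cells. In normal skin the cycling cells are mainly basal keratinocytes and, during hair growth, the matrix cells at the base of the follicle. In psoriatic epidermis, keratinocyte division is increased.

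Gene counts per library ranged from 24701074 to 31005554 for the wild type and from 19529970 to 25864730 for the knockout. Levels are given in CPM, counts scaled to a common library size, with TMM factors that correct for composition, and 3 counts corresponded to 0.09 to 0.157 CPM. Tnip1 itself averaged 26.4 ± 1.55 CPM over the wild types and 1.81 ± 0.23 CPM over the knockouts (SD, n = 3 each), so its level followed the label in each library. Each of the 38 mitosis genes had at least 47 counts in every library, and all passed the filter on low counts. Wild type replicate 3 stood apart from the other wild type libraries in the genes described here, and results are therefore given with and without it.

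Mitosis genes were higher in knockout skin. The median log2 fold change over the 38 genes was 1.35, against -0.04 over all 16691 tested genes, and 37 of the 38 values were positive. With edgeR's quasi-likelihood test, p-values being adjusted over all tested genes and called under 0.05, 26 of 38 rose and 0 fell, where 22.3% of all tested genes rose and 22.7% fell (45.1% in either direction). At an unadjusted p under 0.05 by edgeR the number lower was also 0. By DESeq2 and by limma voom it was 0 at an adjusted p under 0.05. The summed level was 580, 508 and 1410 CPM in wild type replicates 1, 2 and 3 and 1540, 1990 and 2490 CPM in knockout replicates 1, 2 and 3. The 3 knockout sums thus lay above all wild type sums, but wild type replicate 3 came close to the lowest knockout library. In 27 of the 38 genes all knockout libraries were above all wild type libraries, as in 29.2% of tested genes, and in 0 genes were they all below, as in 30.5%. Against wild type replicates 1 and 2 alone, the knockout libraries were all higher in 37 genes, the exception being Pttg1.

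The size of the difference depended on single libraries. In wild type replicate 3, 37 of 38 genes were higher than in both other wild type libraries, as were 27.9% of all tested genes, and the median ratio to the mean of those libraries was 2.71 (0.985 over all tested genes). Without wild type replicate 3 the median log2 fold change was 1.99 and 37 of 38 genes were called, among them all 26 called with 6 libraries. Without wild type replicate 1 or 2 the number called fell to 8 and 9, and without knockout replicate 1, 2 or 3 to 18, 13 and 7. Anln, Ccnb1, Cdc20, Cdca8, Cenpa, Kif4 and Nek2 were called in each of the 6 fits that left out 1 library. The other 19 called genes lost the call in at least 1 of these fits. When libraries were scaled by their totals and not by TMM factors, 16 were called, 34.1% of all calls were higher (49.6% with TMM), and the median of all tested genes shifted by -0.155. Knockout libraries differed among themselves too, with knockout replicate 3 the highest in 38 and knockout replicate 1 the lowest in 36 genes.

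**Figure D1:**
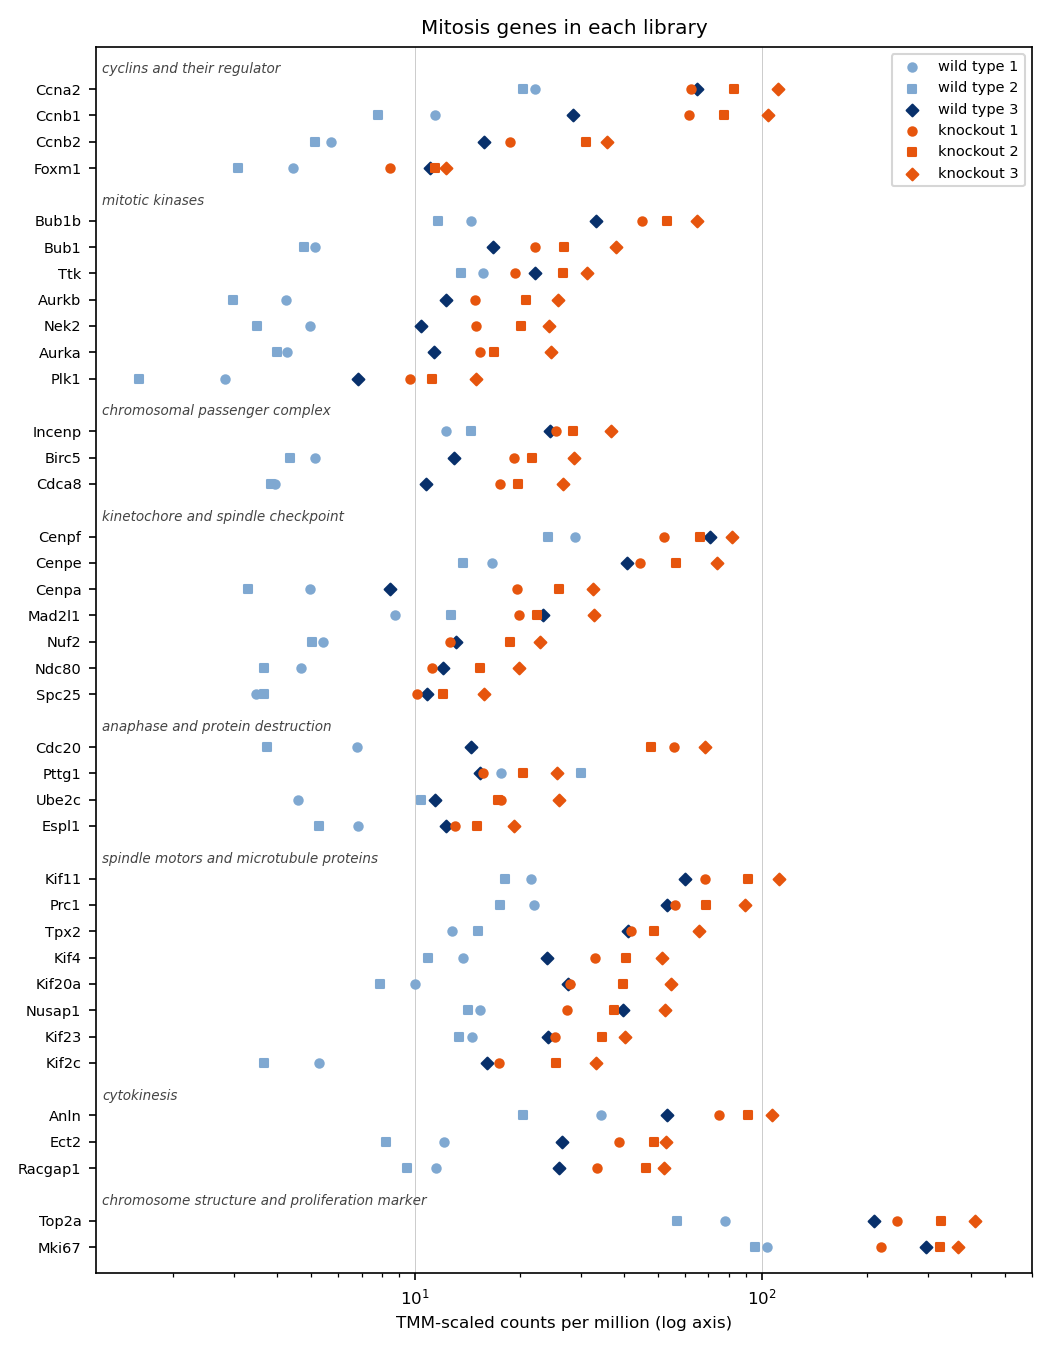
Level of each of the 38 mitosis genes in each library, in TMM-scaled CPM on a log axis, grouped by role; blue symbols are wild type and orange symbols knockout libraries. Wild type 3 (dark diamonds) lies to the right of wild type 1 and 2 in 37 genes, and the knockout symbols lie to the right of all wild type symbols in 27.

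As most of these genes rose, their promoters were searched for elements known from mitotic genes. The cell cycle genes homology region (CHR), TTTGAA, is bound by the MuvB protein complex, which represses such genes in resting cells and, with B-MYB and FOXM1, activates them in G2. The CCAAT box is bound by the factor NF-Y and often lies upstream of a CHR. Windows of 300 bases, from 250 before to 50 after the annotated start (RefSeq, build GRCm38.p6), were found for 32 of the 38 genes (all but Ccna2, Foxm1, Aurkb, Incenp, Kif20a and Tpx2), and both strands were searched for the exact letters. Some genes have more than 1 annotated start, with 32851 windows for 27025 genes, and a match in any window of a gene was counted. A CHR was present in 23 of the 32 genes (71.9%) and in 20.2% of the 27025 genes of the table. It began within 50 bases of the start in 21 of 32 genes (65.6%), against 5.72% of all genes. A CCAAT box was present in 24 of 32 genes (75%, against 41.1%), and both elements in 20 (62.5%, against 7.97%). Only 1 CHR overlapped a CCAAT box. The other elements searched were the CHR variant TTCGAA, found in 3 of 32 genes (9.38%, against 1.8%), and the E2F core TTCCCGC, found in none of the 32 windows and in 5.29% of all genes.

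The 120 bases before the start are shown for genes whose values the results turn on, 5′ to 3′ on the gene's strand, with TTTGAA or CCAAT on either strand in capitals. Cdc20 rose the most, Top2a and Kif11 are abundant genes with a CHR close to the start, Espl1 has the same arrangement with a smaller change, and Mki67 has a pair of CHRs. Ccnb1 rose without the exact CHR letters in its window, and Pttg1 has neither element and did not pass the test.
Cdc20, chr4:118437344-118437463, minus strand: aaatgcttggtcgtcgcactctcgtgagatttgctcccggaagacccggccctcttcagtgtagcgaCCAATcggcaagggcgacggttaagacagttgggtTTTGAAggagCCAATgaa
Top2a, chr11:99024190-99024309, minus strand: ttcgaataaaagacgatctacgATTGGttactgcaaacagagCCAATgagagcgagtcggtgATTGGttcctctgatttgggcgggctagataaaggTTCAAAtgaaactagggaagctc
Kif11, chr19:37376262-37376381, plus strand: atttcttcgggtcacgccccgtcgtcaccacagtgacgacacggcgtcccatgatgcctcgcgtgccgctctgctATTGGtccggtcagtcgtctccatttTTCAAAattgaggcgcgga
Espl1, chr15:102296173-102296292, plus strand: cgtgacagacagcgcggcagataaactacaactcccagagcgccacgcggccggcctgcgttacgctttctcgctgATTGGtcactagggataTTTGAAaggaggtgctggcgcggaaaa
Mki67, chr7:135716380-135716499, minus strand: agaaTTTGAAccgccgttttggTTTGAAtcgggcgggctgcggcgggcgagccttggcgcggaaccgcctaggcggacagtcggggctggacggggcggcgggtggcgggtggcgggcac
Ccnb1, chr13:100786487-100786606, minus strand: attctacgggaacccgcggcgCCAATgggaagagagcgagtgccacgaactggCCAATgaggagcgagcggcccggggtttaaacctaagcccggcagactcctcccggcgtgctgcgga
Pttg1, chr11:43425982-43426101, minus strand: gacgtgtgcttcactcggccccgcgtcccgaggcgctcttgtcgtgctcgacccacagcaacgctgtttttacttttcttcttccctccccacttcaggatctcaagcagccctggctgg

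In Cdc20 the CHR began 18 bases before the start with CCAAT boxes at 53 and 8, in Kif11 it began 19 bases before with a CCAAT box at 45, and in Espl1 it began 27 bases before with a CCAAT box at 44. Other members carry the CHR just past the start. For Cenpa, Plk1 and Ccnb2, which all rose, the site is shown as 30 bases with the CHR in capitals.
Cenpa, chr5:30666890-30666919, plus strand: ggcgggtgatttTTTGAActgctggcgacc
Plk1, chr7:122159453-122159482, plus strand: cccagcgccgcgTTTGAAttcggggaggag
Ccnb2, chr9:70421533-70421562, minus strand: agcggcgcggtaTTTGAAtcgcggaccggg

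The CHR was frequent in other genes of this stage too. It was found in 32 of 55 other G2 and M phase genes (58.2%) and in 5 of 12 E2F and MuvB genes (41.7%). Among DNA replication genes it was found in 6 of 30 (20%), and among G1 genes in 2 of 13 (15.4%). The CCAAT box was frequent in 3 of these lists: 63.6% of other G2 and M phase, 66.7% of E2F and MuvB and 63.3% of DNA replication genes. In G1 genes its share was 46.2%. Both elements were present in 43.6%, 41.7% and 10% of those 3 lists and in 0 G1 genes. The E2F core was found in 14 of 30 DNA replication genes (46.7%) and in 10 of 55 other G2 and M phase genes (18.2%). Within the mitosis genes, the median log2 fold change was 1.45 in the 23 genes with a CHR, of which 17 were called, and 1.29 in the 9 without, of which 6 were called. These matches describe letters in a window and not binding.

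**Figure D2:**
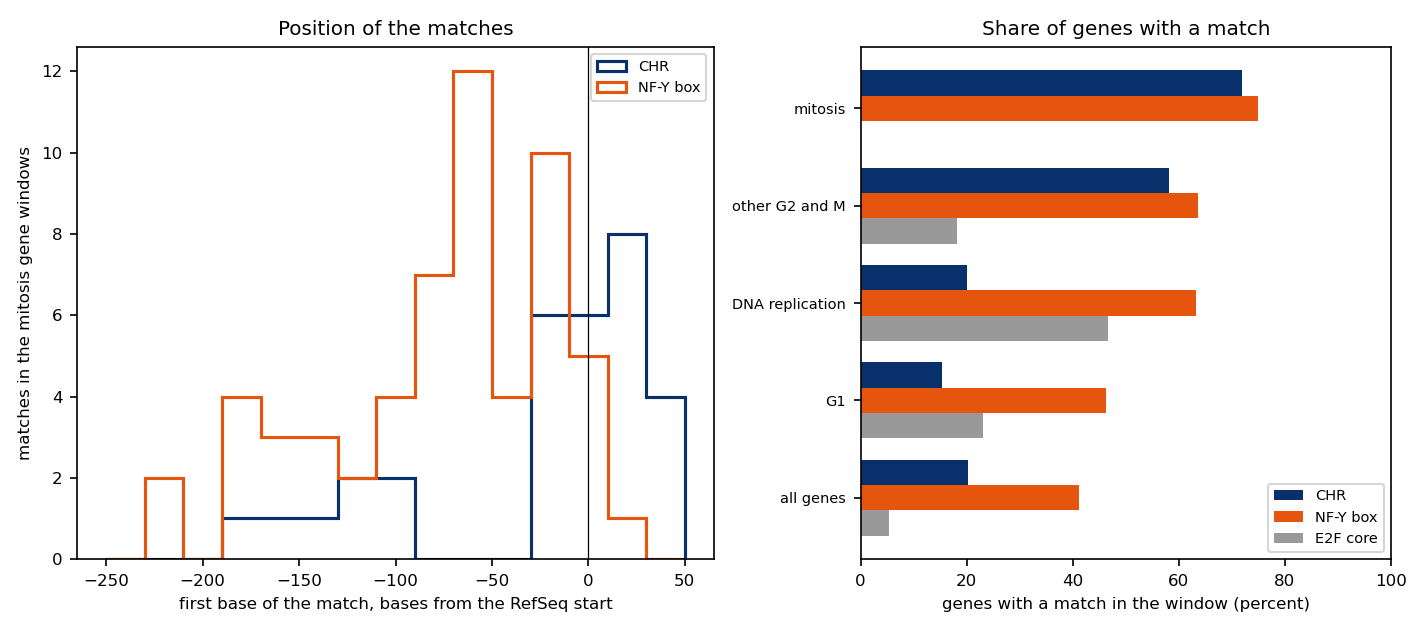
Left, number of CHR and NF-Y (CCAAT) box matches in the windows of 32 mitosis genes by position, as bases from the annotated start. Right, percent of genes with each element by gene list; the CHR bar is 71.9 for mitosis genes and 20.2 for all genes.

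Among cyclins, Ccnb1, which encodes the cyclin that drives entry into mitosis, had 11.4, 7.82 and 28.4 CPM in the wild types, against 61.4, 77.4 and 104 CPM in the knockout libraries. The groups did not overlap, and the lowest knockout library was well above wild type replicate 3. Ccnb1 rose by 2.35 in log2 units, the unit of all fold changes given here (SE 0.48, standard error; adjusted p = 0.00834 by edgeR; 3.08 without wild type replicate 3). Its relative Ccnb2 had 5.70, 5.13 and 15.8 CPM in the wild types, against 18.7, 31.1 and 35.8 CPM in the knockout libraries, again without overlap, and rose by 1.69 (SE 0.47, adjusted p = 0.0249, edgeR). Ccna2 encodes cyclin A2, which acts from S phase on, and its level was 22.1, 20.4 and 64.9 CPM in the wild types, against 62.5, 83.1 and 111 CPM in the knockout libraries. Here wild type replicate 3 exceeded knockout replicate 1, and the log2 fold change of 1.26 did not pass the test (adjusted p = 0.064, edgeR; 2.02 and adjusted p = 0.00405 without wild type replicate 3). Foxm1, the transcription factor gene of this programme, had 4.44, 3.09 and 11.0 CPM in the wild types, against 8.45, 11.4 and 12.3 CPM in the knockout libraries. Its groups overlapped and it did not pass (0.80, adjusted p = 0.184, edgeR; 1.51 without wild type replicate 3).

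Of the 7 mitotic kinase genes, 6 rose. Plk1, the polo-like kinase of mitotic entry and spindle formation, had 2.82, 1.60 and 6.85 CPM in the wild types, against 9.65, 11.2 and 15.0 CPM in the knockout libraries (a rise of 1.68, SE 0.50, adjusted p = 0.0305, edgeR). Aurkb, the kinase that corrects faulty chromosome attachments, had 4.23, 2.99 and 12.3 CPM in the wild types, against 14.9, 20.8 and 25.8 CPM in the knockout libraries (1.66, adjusted p = 0.0361). In both genes wild type replicate 3 was the highest wild type library and lay below every knockout library. Nek2, a kinase that splits the centrosomes, read 4.98, 3.50 and 10.4 CPM across the wild types and 15.0, 20.2 and 24.3 CPM across the knockouts (1.66, SE 0.40, adjusted p = 0.0153). Bub1, a checkpoint kinase gene, read 5.13, 4.76 and 16.8 CPM across the wild types and 22.2, 26.9 and 37.9 CPM across the knockouts (1.71, adjusted p = 0.0307). Neither gene overlapped between genotypes, and the centrosome kinase gene Aurka (1.55) and the checkpoint gene Bub1b (1.46) rose as well. Ttk, the kinase that starts the checkpoint signal, stood at 15.7, 13.5 and 22.1 CPM in the wild types, against 19.4, 26.6 and 31.2 CPM in the knockout libraries and did not pass (0.59, adjusted p = 0.0822, edgeR).

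All 3 genes of the chromosomal passenger complex, the scaffold that carries Aurora B to the centromere, rose. Cdca8, which encodes borealin, had 3.93, 3.84 and 10.7 CPM in the wild types, against 17.5, 19.8 and 26.6 CPM in the knockout libraries, without overlap (1.79, SE 0.42, adjusted p = 0.0137, edgeR). Birc5, the gene of survivin, read 5.13, 4.35 and 12.9 CPM across the wild types and 19.3, 21.7 and 28.7 CPM across the knockouts, and rose by 1.64 (adjusted p = 0.0181). Incenp, the inner centromere protein gene, rose by 0.83 (adjusted p = 0.0448), and its highest wild type library, at 24.4 CPM, lay just under its lowest knockout library, at 25.5 CPM.

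Of 7 kinetochore and checkpoint genes, 3 rose. Cenpa, which encodes the histone H3 variant that marks centromeres, had 4.98, 3.30 and 8.44 CPM in the wild types, against 19.7, 25.9 and 32.6 CPM in the knockout libraries. The knockout libraries were all far above wild type replicate 3, and Cenpa rose by 2.23 (SE 0.36, adjusted p = 0.00371, edgeR; 2.66 without wild type replicate 3). Cenpe, the gene of a kinetochore motor, rose by 1.29 (adjusted p = 0.0423), and Nuf2, of the microtubule-binding NDC80 complex, by 1.21 (adjusted p = 0.0477) although its groups overlapped. Its complex partners Ndc80 (1.19, adjusted p = 0.0695) and Spc25 (1.08, adjusted p = 0.0905) and the checkpoint gene Mad2l1 (0.75, adjusted p = 0.134) missed the threshold, and each passed without wild type replicate 3 (1.90, 1.83 and 1.24). Cenpf, which encodes a large protein of the outer kinetochore, had 28.9, 24.1 and 70.7 CPM in the wild types, against 52.0, 66.2 and 81.8 CPM in the knockout libraries. In Cenpf wild type replicate 3 exceeded knockout replicates 1 and 2, and the gene did not pass (0.70, adjusted p = 0.199, edgeR; 1.34 without wild type replicate 3).

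Genes of anaphase and protein destruction held both ends of the range. Cdc20, the activator that directs the anaphase-promoting complex to its targets, had 6.81, 3.74 and 14.5 CPM in the wild types, against 55.8, 47.9 and 68.5 CPM in the knockout libraries. The groups lay far apart, and the knockout mean was 6.87 times the wild type mean and 3.96 times the level of wild type replicate 3. Cdc20 rose by 2.78 (SE 0.46, adjusted p = 0.00416, edgeR; 3.45 without wild type replicate 3), more than any other of the 38 genes. Ube2c, the ubiquitin-conjugating enzyme gene of the same complex, read 4.59, 10.4 and 11.4 CPM across the wild types and 17.7, 17.3 and 26 CPM across the knockouts, with wild type replicate 1 the low one here. It rose by 1.21 (adjusted p = 0.0277), and Espl1, the gene of separase, which cuts the cohesin ring, by 0.95 (adjusted p = 0.0478). Pttg1 encodes securin, the inhibitor of separase, and had 17.7, 30.1 and 15.4 CPM in the wild types, against 15.7, 20.4 and 25.7 CPM in the knockout libraries. The groups overlapped, wild type replicate 2 being the highest of all libraries, and the log2 fold change was -0.03 (SE 0.29, adjusted p = 0.931, edgeR) and turned to 0.31 without wild type replicate 2 and to 0.14 without knockout replicate 1. It was also the only gene of the set that was not highest in replicate 3 among the wild type libraries.

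Of 8 spindle motor and microtubule genes, 5 rose. Kif11, the motor that pushes spindle poles apart, had 21.6, 18.1 and 59.9 CPM in the wild types, against 68.6, 90.9 and 112 CPM in the knockout libraries (1.45, SE 0.46, adjusted p = 0.0386, edgeR). Kif4, a motor of chromosome arms and the central spindle, read 13.7, 10.9 and 24.0 CPM across the wild types and 33.0, 40.4 and 51.6 CPM across the knockouts, and rose by 1.37 (SE 0.31, adjusted p = 0.0123), and Kif2c, a microtubule depolymerase at centromeres, by 1.61. The motor genes of the cell midzone Kif20a (1.43, adjusted p = 0.0493) and Kif23 (0.94) rose as well. Prc1 (1.21, adjusted p = 0.0505) and Tpx2 (1.18, adjusted p = 0.0652), which bundle and nucleate spindle microtubules, missed the threshold although their groups did not overlap. Nusap1, another microtubule-bundling protein gene, stood at 15.4, 14.2 and 39.6 CPM in the wild types against 27.3, 37.5 and 52.6 CPM in the knockouts, so that wild type replicate 3 exceeded knockout replicates 1 and 2, and did not pass (0.76, adjusted p = 0.186). Prc1, Tpx2 and Nusap1 all passed without wild type replicate 3 (1.86, 1.91 and 1.41).

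The 3 cytokinesis genes rose. Anln encodes anillin, a scaffold of the contractile ring, and had 34.4, 20.4 and 53.0 CPM in the wild types, against 75.1, 91.2 and 107 CPM in the knockout libraries (1.34, SE 0.33, adjusted p = 0.016, edgeR). Ect2, the exchange factor that switches on RhoA at the cleavage site, read 12.1, 8.22 and 26.4 CPM across the wild types and 38.7, 48.8 and 52.7 CPM across the knockouts (1.59, adjusted p = 0.0184). Its partner Racgap1 rose by 1.49 (adjusted p = 0.0197). In each of the 3 genes the groups did not overlap.

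A widely used proliferation marker did not pass the test. Mki67, the gene of the Ki-67 antigen that coats mitotic chromosomes, had 103, 95.5 and 297 CPM in the wild type libraries, against 220, 326 and 368 CPM in the knockout libraries. Wild type replicate 3 exceeded knockout replicate 1, and the log2 fold change of 0.88 had an adjusted p of 0.151 by edgeR (1.63 and adjusted p = 0.00588 without wild type replicate 3). Top2a, which encodes the topoisomerase that untangles sister chromatids, had 77.9, 57.0 and 210 CPM in the wild type libraries, against 245, 329 and 412 CPM in the knockout libraries. Its groups did not overlap and it rose by 1.52 (SE 0.48, adjusted p = 0.039, edgeR; 2.29 without wild type replicate 3).

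**Figure D3:**
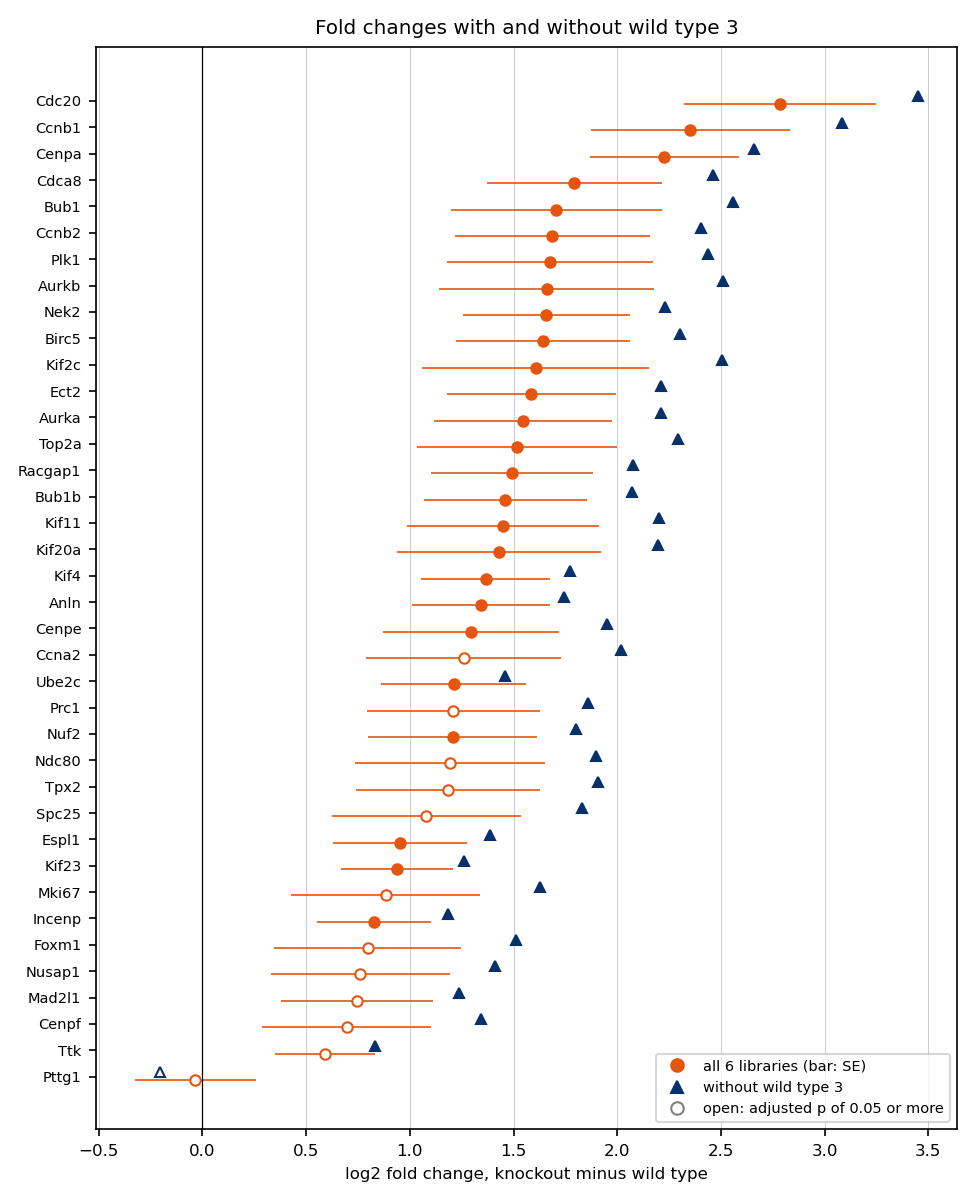
Log2 fold change, knockout minus wild type, of the 38 genes with all 6 libraries (circles, bars are SE) and without wild type 3 (triangles); open symbols did not pass an adjusted p of 0.05. Values are larger without wild type 3 in 37 genes, and 26 circles and 37 triangles are filled.

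Dividing by the length of exon gives only a rough comparison of levels between different genes. The lengths used join all isoforms, and the annotation behind the counts is not given. The order of the genes may thus depend on these lengths, which was not tested. Per kilobase of annotated exon (GENCODE M21, all isoforms joined), Mki67 and Top2a had the highest mean levels in wild type skin, 16.4 ± 11.4 and 12.8 ± 9.20 CPM per kilobase (SD, n = 3), followed by Pttg1 at 10.5 ± 3.95. The SDs of these 3 genes overlapped, and the order rested on wild type replicate 3: over wild type replicates 1 and 2 the means were 12 for Pttg1, 9.84 for Mki67 and 7.48 for Top2a. In knockout skin Top2a (36.5 ± 9.26), Cdc20 (30.7 ± 5.56) and Mki67 (30.3 ± 7.58) were highest and not separable by their spread, whereas Cdc20 stood at 4.47 ± 2.97 in wild type skin.

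The make-up of the mitosis counts is given as a description, with no test. To leave out library scaling, each gene was expressed as a percent of the summed counts of the 38 genes in its own library. In 16 genes (42.1%) this share was higher in all knockout than in all wild type libraries, in 9 (23.7%) it was lower in all knockout libraries, and in 13 the groups overlapped. Cdc20 made up 1.17%, 0.736% and 1.03% of the mitosis counts in the wild types, against 3.64%, 2.40% and 2.75% in the knockout libraries. Ccnb1 made up 1.96%, 1.54% and 2.01% in the wild types, against 4%, 3.88% and 4.17% in the knockout libraries. Cenpa, Cdca8, Bub1, Plk1 and Aurkb also took larger shares in every knockout library. In the shares of Cdc20 and Ccnb1, 2 of the genes with the largest fold changes, wild type replicate 3 was close to the other wild type libraries. In other genes it was not: Kif23 made up 2.53%, 2.64% and 1.71% across the wild types and 1.65%, 1.73% and 1.62% across the knockouts.

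Shares that were lower in the knockout included those of Cenpf (4.99%, 4.73% and 5.01% against 3.39%, 3.32% and 3.29%) and Mki67 (17.7%, 18.8% and 21.0% against 14.3%, 16.4% and 14.8%). Foxm1, Nusap1, Mad2l1, Ttk, Incenp, Espl1 and Pttg1 were also lower in every knockout library, but for some of them wild type replicate 3 lay near the knockouts. The share of Pttg1 was 3.06%, 5.93% and 1.09% across the wild types and 1.02%, 1.02% and 1.03% across the knockouts. The share of Ttk was 2.70%, 2.65% and 1.57% across the wild types and at most 1.33% in the knockouts. Incenp (1.73% in wild type replicate 3, at most 1.66% in the knockouts) and Espl1 (0.871% and 0.844%) were separated by little. Shares of 1 total are not independent, since a larger share of some genes lowers that of others. Ratios of gene pairs avoid the total, and 7 pairs were computed. Per 100 counts of Ccna2 there were 51.4, 38.3 and 43.8 counts of Ccnb1 in the wild types, against 98.3, 93.1 and 93.2 in the knockout libraries. Per 100 counts of Cenpf there were 17.2, 13.7 and 11.9 counts of Cenpa in the wild types, against 37.9, 39.1 and 39.8 in the knockout libraries. Per 100 counts of Mki67 there were 6.62, 3.92 and 4.89 counts of Cdc20 in the wild types, against 25.4, 14.7 and 18.6 in the knockout libraries. In none of these 3 pairs did the genotypes overlap, and wild type replicate 3 lay between the other wild type libraries for Ccnb1 and for Cdc20 and just below them for Cenpa. Plk1 per Foxm1 and Cdc20 per Mad2l1 did not overlap either. The pairs with Pttg1 did: per 100 counts of Espl1 there were 259, 572 and 125 counts of Pttg1 across the wild types and 121, 135 and 134 across the knockouts, and per 100 counts of Mki67 there were 17.2, 31.6 and 5.17 against 7.16, 6.25 and 6.99. All pairs were chosen after their values were seen and were not tested.

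**Figure D4:**
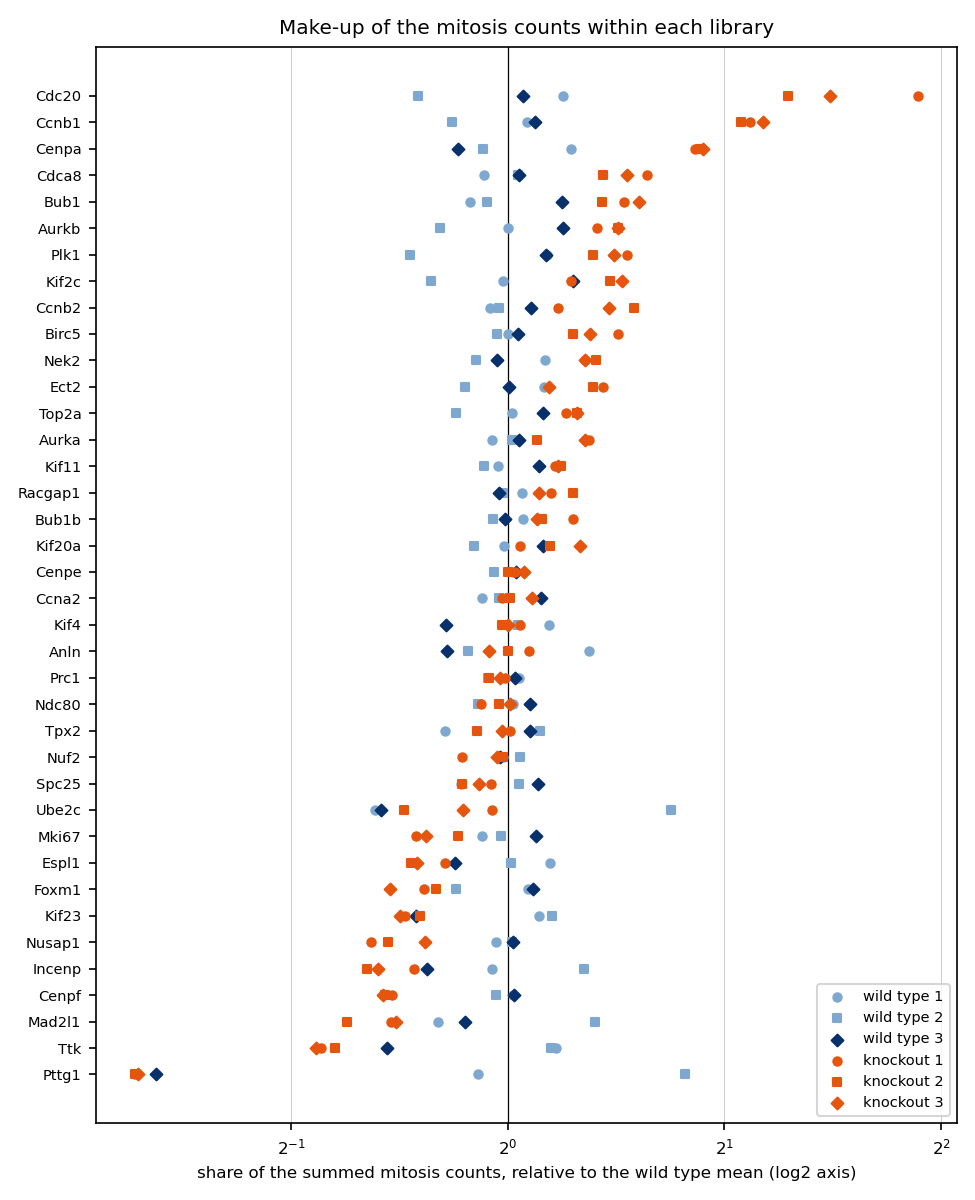
Share of each gene in the summed counts of the 38 mitosis genes of its library, divided by the wild type mean share, on a log2 axis. Cdc20, Ccnb1 and Cenpa at the top lie to the right of all wild type symbols in each knockout library, and Pttg1 at the bottom separates wild type 1 and 2 from the other libraries.

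Other genes of G2 and M phase followed the mitosis genes. Of 71 such genes outside the set, 42 rose and 29 did not pass the edgeR test, with a median log2 fold change of 1.14. Cdk1, the kinase partner of cyclin B, which was named after its value was seen, rose by 2.10 (adjusted p = 0.014). Of the 4 most abundant, the importin gene Kpna2 rose by 2.05, the condensin gene Smc2 by 1.01 and the checkpoint gene Bub3 by 0.39, and the condensin gene Smc4 stood at 0.45 (adjusted p = 0.131, edgeR). The summed level of the 71 genes was 757, 695 and 1420 CPM in the wild type libraries, against 1630, 2000 and 2420 CPM in the knockout libraries, so wild type replicate 3 stood apart here too.

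Of 35 DNA replication genes, 20 rose and 15 did not pass the edgeR test, with a median of 0.85. The ribonucleotide reductase gene Rrm1 (1.18), the sliding clamp gene Pcna (0.85) and the helicase genes Mcm6 (0.84) and Mcm4 (0.81) rose. The ratio of the summed mitosis to the summed replication counts was 0.984, 1.03 and 1.40 in the wild types, against 1.39, 1.49 and 1.62 in the knockout libraries, so wild type replicate 3 and knockout replicate 1 were alike in this ratio.

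In the lists of G1 genes, E2F and MuvB genes and anaphase-promoting complex genes, calls went in both directions. Of 17 tested G1 cyclins, kinases and inhibitors, 4 rose and 4 fell, shares near those of all tested genes. Ccnd2, a G1 cyclin gene, fell from 179, 164 and 184 CPM to 83.8, 71.2 and 59.9 CPM (log2 -1.29), and Cdkn1b, the gene of the inhibitor p27, fell by 0.90. Cdk4, a G1 kinase gene, rose by 0.63, and Ccnd1 stood at -0.03 (adjusted p = 0.919, edgeR). Of 16 E2F and MuvB genes, 4 rose (25%) and 3 fell (18.8%), also near the 22.3% and 22.7% of all tested genes. Among the most abundant, Tfdp1 (1.04) and Rbbp4 (0.59) were higher, Tfdp2 (-0.59) was lower and Lin54 stood at 0.21 (adjusted p = 0.19, edgeR). Of 14 genes of the anaphase-promoting complex and its cofactors, 5 rose (35.7%) and 1 fell (7.14%), with a median of 0.21. Its abundant subunit genes Anapc5 (0.15), Anapc1 (0.25) and Cdc27 (0.11) did not pass and Cdc16 rose by 0.35.

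Markers of growing hair follicles were compared because hair growth adds dividing cells. Of 27 such markers in the tables, 13 were tested, and 1 rose (Krt84) and 5 fell (Krt28, Krt32, Msx1, Lef1 and Wnt10b). Their summed level was 37.5, 26 and 138 CPM in the wild types, against 25.9, 28.6 and 26.5 CPM in the knockout libraries. Wild type replicate 3 was the highest wild type library for 25 of the 27, and the knockout sums lay near those of wild type replicates 1 and 2. Single markers did not all follow the sum. In 11 of the 27 all knockout libraries were below all wild type libraries, as in 30.5% of all tested genes. In 2 they were all above, as in 29.2% of tested genes, and in 14 the groups overlapped. Only 13 of the 27 passed the filter on low counts. Shh, the signal gene of the growing follicle's matrix, had 11, 9 and 173 counts in the wild type libraries, against 0, 1 and 0 counts in the knockout libraries. The most abundant of these markers were Dlx3, which the epidermis between follicles also expresses, and Tchh, which had 8.61, 6.56 and 27.1 CPM in the wild types and 6.51, 6.01 and 9.30 CPM in the knockouts. Krt71, a keratin gene of the inner root sheath, had 29, 9 and 418 counts in the wild type libraries, against 2, 0 and 5 counts in the knockout libraries. Krt33a had only 5, 4 and 19 counts in the wild types and no counts in any knockout library. Shh, Krt71 and Krt33a were not among the tested markers. The 16 keratin genes among these markers include Krt71 and other keratins of the inner root sheath. Together they had 325, 156 and 1809 counts in the wild type libraries, against 127, 168 and 80 counts in the knockout libraries. Krt84 made up much of the knockout counts. Without Krt84, the other 15 keratin genes had 293, 131 and 1773 counts across the wild types and 41, 43 and 36 counts across the knockouts. Every knockout library was thus below every wild type library. Markers of melanocytes, the pigment cells that color growing hair (3 of 5 lower), summed to 17.0, 28.4 and 131 CPM in the wild types, against 13.3, 6.82 and 7.73 CPM in the knockout libraries. The mitosis genes were thus high in wild type replicate 3 together with follicle and melanocyte markers, and high in the knockout libraries with these sums low. With the mean log2 level of the follicle markers as a covariate, 37 of 38 mitosis genes were called and the median log2 fold change was 2.19. That covariate was 0.31, 0.05 and 1.74 across the wild types and -0.05 to -0.02 across the knockouts, so it mainly sets wild type replicate 3 apart, and the fit comes close to leaving that library out, which also gave 37 calls. The part of hair growth in the level of wild type replicate 3 was not tested.

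Other cell type markers also moved with genotype, and in bulk skin more cells of a type and more RNA per cell cannot be told apart. Basal keratinocyte markers, of which 4 of 8 rose and 1 fell, summed to 3800 to 7420 CPM in the wild type libraries, against 14800 to 19500 CPM in the knockout libraries, led by Krt14 and Krt5. Per 100 counts of these markers there were 7.82, 13.4 and 26.3 mitosis counts in the wild types, against 10.4, 13.3 and 12.7 in the knockout libraries, and on this scale the genotypes overlapped. The result depended on the marker: per count of each of the 8 basal markers alone, all knockout libraries were above all wild type libraries for 3 (Trp63, Col17a1 and Dst), all below for 1 (Krt14), and overlapping for 4. Per count of Trp63 there were 2.99, 3.19 and 6.66 mitosis counts across the wild types and 7.57, 9.25 and 14.3 across the knockouts. Not all basal genes rose: Trp63, the basal cell transcription factor gene, stood at 0.07 and Dst, of hemidesmosomes, fell by 1.15. Stressed keratinocyte markers (6 of 6 higher) summed to 732 to 1040 CPM and 26600 to 34500 CPM, and suprabasal markers (2 of 8 higher, 1 lower) to 7670 to 9640 and 8650 to 11600 CPM. Follicle stem cell markers (5 of 7 lower) summed to 918 to 1150 CPM in the wild type libraries, against 222 to 300 CPM in the knockout libraries.

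Among immune and blood cells, neutrophil markers (7 of 7 tested higher) summed to 11.7 to 19.3 CPM in the wild types, against 95.5 to 168 CPM in the knockout libraries, macrophage markers (4 of 9 higher) to 1080 to 1590 and 2140 to 2510 CPM, and erythroid markers (5 of 6 higher) to 341 to 600 and 779 to 1530 CPM. T cell markers (1 of 9 higher, 3 lower) summed to 73.6 to 148 CPM and 49.8 to 66.8 CPM, Langerhans cell markers (4 of 4 lower) to 607 to 638 and 152 to 410 CPM, and B cell markers (1 tested, not called) to 1.17 to 2.11 and 1.59 to 3.47 CPM. Most of the T cell sum was Thy1, with 53.8, 116 and 110 CPM in the wild types, against 30.2, 42.1 and 30.9 CPM in the knockouts. The next, Cd3g, had 7.44, 10.8 and 11.3 against 4.96, 7.20 and 4.02 CPM. Of the 9 T cell markers, 5 did not pass. Most of the Langerhans cell sum was H2-Aa and Cd74, each with a mean of 296 CPM in the wild types, against 133 and 116 CPM in the knockouts. Cd207 averaged 16.5 and Itgax 10.6 CPM in the wild types, against 2.27 and 7.36 CPM in the knockouts. Skeletal muscle markers (7 of 8 lower) summed to 9510 to 16900 CPM in the wild type libraries, against 3300 to 4800 CPM in the knockout libraries. Adipocyte markers (2 of 6 lower) summed to 1970, 3760 and 2350 CPM in the wild types, against 1240, 72.3 and 1060 CPM in the knockouts. Knockout replicate 2 was thus far below the other knockout libraries. Fibroblast markers (2 of 6 lower) summed to 16500, 7720 and 6390 CPM in the wild types, against 6810, 6140 and 6230 CPM in the knockouts. Wild type replicate 3 lay within the knockout range, and wild type replicate 1 was far above all other libraries. Endothelial markers (3 of 5 lower) summed to 174 to 306 and 149 to 172 CPM. When the mean log2 level of muscle and fat markers entered the fit, only Cdc20 (2.87) was called among the mitosis genes, at a median of 1.27. That score was 8.81, 9.76 and 9.11 in the wild types, against 7.96, 5.30 and 7.80 in the knockout libraries, knockout replicate 2 being the lowest. The groups did not overlap, so the score and the genotype cannot be told apart. The part of the other cell types in the result was not tested.

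**Figure D5:**
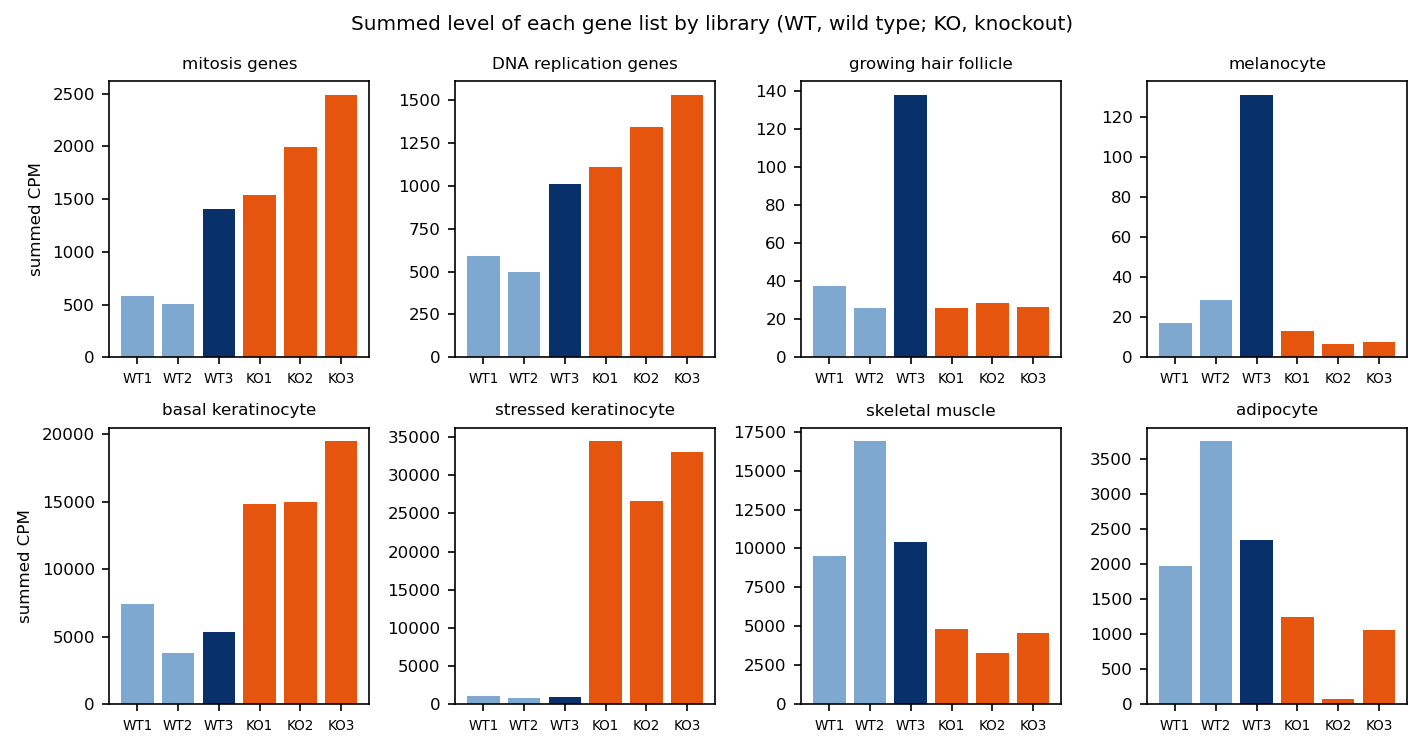
Summed CPM of the mitosis, DNA replication and selected cell type marker lists in each library, on linear axes that start at 0. Mitosis genes are high in wild type 3 and in the 3 knockout libraries, follicle and melanocyte markers only in wild type 3 among the 6 libraries, and stressed keratinocyte markers in the 3 knockout libraries.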

How the data were processed

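RNA was measured in skin of 3 wild type and 3 knockout mice. Per the labels' protocols, a stranded total RNA kit with ribosomal depletion was used, with paired reads. The deposited files hold raw counts by gene symbol, 1 file for each library. The submitters' processing notes name CASAVA 1.7, STAR, BWA, HTSeq, limma, R 3.2.3 and the build mm9; order, settings, strand option and annotation are not given in the sources used here, so overlapping and antisense genes cannot be told apart. The 5 summary lines of the counter (26.7% to 30.3% of each file's total) were left out. No pair of replicates matched within counting noise (chi-square divided by its degrees of freedom, 30.8 to 124). The design text names 3 mice per genotype; the labels do not say whether litters or processing days were shared. The test was run with edgeR 4.0.16 under R 4.3.3, using TMM factors (0.898 to 1.095), default filterByExpr, a quasi-likelihood fit on genotype and Benjamini-Hochberg adjustment over 16691 genes, called under 0.05. Fold changes are knockout minus wild type. The fit was also run on simulated data with few changed genes and the same dispersion for all genes. These settings differ from the data here, so that run does not show how accurate the calls are. Alternatives were DESeq2 1.42.0, library totals, upper-quartile factors, limma 3.58.1 voom, no filter, a filter of 1 CPM in 3 libraries, omitting 1 library at a time, a block for the replicate number, and follicle or muscle and fat scores as covariates. The members and lists were chosen with earlier results of these data known. All members are named. Of the other cell cycle lists, the 4 genes with the highest mean CPM are named. Of marker lists the 2 highest were to be named, given here for the follicle, basal, T cell and Langerhans cell lists only. Cdk1, Shh, Krt71, Krt84, Krt33a, Trp63, Dst, Cd207, Itgax and the called follicle markers were named after their values were seen. Promoter windows are RefSeq's (GRCm38.p6), a later build than that of the counts, matched by symbol.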

Additional observations from a re-analysis of the deposited data

How the results depend on the processing

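Of the 38 mitosis genes, Pttg1 changed sign: it ranged from -0.213 to 0.313 without 1 library (0.31 without wild type replicate 2, 0.14 without knockout replicate 1) and was 0.18 with the muscle and fat covariate. The other 37 kept a positive value under every alternative run. The number of mitosis genes called higher was 16 with library totals alone and 1 with the muscle and fat covariate, 20 with upper-quartile factors, 25 and 28 with the stricter filter and no filter, 31 with limma voom, 32 with DESeq2 and 37 with the follicle covariate. Without 1 library it ranged from 7 to 37, and the number lower was 0 in every fit. Of the other cell cycle genes, 75 of 153 were called higher and 8 lower; with library totals alone 40 were higher, with the follicle covariate 114 were higher, and with the muscle and fat covariate 4 were higher and 1 lower. Without 1 library these counts ranged from 33 to 114 and from 4 to 8. Over all tested genes, 3730 were higher and 3795 lower; with the muscle and fat covariate 1035 and 871, and without 1 library 2792 to 3421 higher and 2679 to 3445 lower. With library totals alone 34.1% of all calls were higher, against 49.6%. Over all tested genes, same-numbered libraries of the genotypes showed weak correlations (0.011, -0.209 and 0.193). With 3 animals per genotype these values cannot decide whether the numbers pair the animals. Among the mitosis genes, replicate 3 was the highest wild type library in 37 and the highest knockout library in 38. With the replicate number as a block 35 mitosis genes were called higher, and the labels tie no number to a shared litter or day. With 3 animals per genotype the spread between them limits the precision, and each mitosis gene had at least 47 counts in every library. The causes of these changes were not tested.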
